A study of Mus musculus with 2 samples.

Results

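Lpl, Gpihbp1, Angptl4, Cd36, Fabp4, Fabp5, Plin2, Pnpla2, Mgll and Cpt1a encode proteins that release, take up, bind, store, hydrolyse and oxidise fatty acids, and their transcripts were followed through the cell types of mouse pancreatic islets. The 10 genes were chosen by name for these roles, and all 10 were among the 31053 genes of the count tables. The question was which islet cell types carried each transcript, and how the levels in each type compared between wild-type mice and mice on a high-fat diet.

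The study compared islets across mouse models of obesity, and 2 single-cell RNA libraries were analysed here. Both were made from male C57/B6 mice aged 16 weeks, with islets of 4 mice pooled in each, and no genetic change was named for either group. The WT mice had no diet named in the labels, whereas the HFD mice ate food that took 60% of its energy from fat, begun when they were 6 weeks old and kept up for 10 weeks. Each group was therefore 1 library, mice within a pool could not be separated, and the effect of the diet and any difference between library preparations cannot be told apart. No test between the groups exists, so each level is given in unique molecular identifiers (UMIs, each marking 1 captured transcript) per 1000000 UMIs of a cell class (CPM), with a 95% interval that covers counting error only. A gene was called higher or lower where the HFD to WT ratio of CPM was at least 2-fold and the libraries together held 20 or more UMIs of the gene in that class.

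Fatty acids reach cells largely from triglyceride-rich lipoproteins. Lipoprotein lipase (Lpl), held on the capillary wall by Gpihbp1 and inhibited by Angptl4, releases them, Cd36 and fatty acid binding proteins carry them across the membrane and through the cytosol, and perilipins such as Plin2 coat the droplets in which they are stored. Pnpla2 (adipose triglyceride lipase) and Mgll (monoacylglycerol lipase) act at the first and last steps of droplet lipolysis, and Cpt1a admits long-chain fatty acids to mitochondria for oxidation. In islets, fatty acids acutely support insulin secretion, and their prolonged excess is known to impair β cells.

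Before filtering, 9 barcodes occurred in both libraries. After filtering, 2498 WT and 6672 HFD cells remained. WT cells were deeper, with a median of 24030 UMIs against 10919 in HFD cells. Clusters were named from marker lists as β-like (1655 WT and 5488 HFD cells), α-like (69 and 230), δ-like (55 and 116), endothelial-like (170 and 152), fibroblast-like (66 and 27), macrophage-like (40 and 45), ductal-like (58 and 33), T-like (12 and 168), B-like (13 and 36) and acinar-like (11 and 4). Ratios are given for the first 7 of these. In WT T-like cells natural killer (NK) markers stood at 629 CPM against 433 CPM for T markers, with Cd3d, Cd3e, Trac and Cd8b1 at 0. In WT B-like cells neutrophil markers stood at 2278 CPM against 1568 CPM for B markers. The WT cells thus do not bear out either name. Clusters without a name held 14.0% of WT and 5.59% of HFD cells, most of them in a cluster led by Sst, Rbp4, Pyy and Ppy. All 10 endothelial markers, all 7 fibroblast markers, all 8 macrophage markers and all 6 ductal markers were detected in the class of that name in both libraries. The α-like and δ-like classes also carried Ppy and Pyy, the γ cell hormones, and in the α-like class the summed γ markers stood at 194286 CPM in WT and at 125998 CPM in HFD beside 219389 and 288493 CPM for the α markers. The endothelial-like class held the 7 mural markers at 2714 CPM in WT and at 3036 CPM in HFD, against 21726 and 21518 CPM for its own markers. Adipocyte markers (Adipoq, Retn, Lep, Cfd, Car3 and Adrb3) were at 0 in both libraries of the endothelial-like, fibroblast-like and macrophage-like classes.

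**Figure D1:**
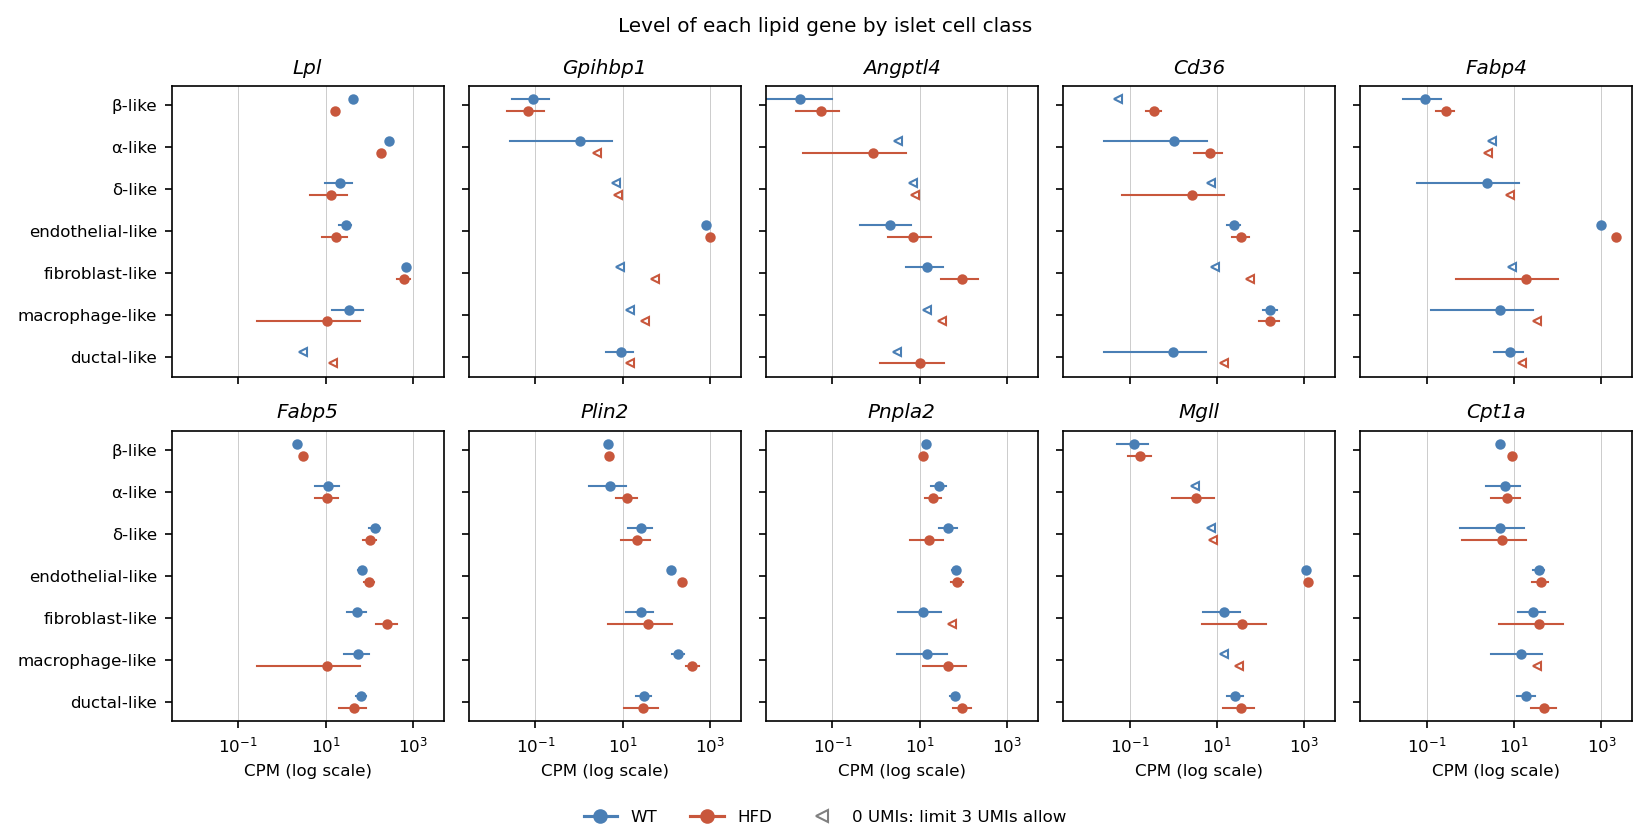
Level of each of the 10 genes (CPM, log scale) in 7 islet cell classes, WT in blue and HFD in red, with 95% intervals for counting error as lines. Open triangles mark classes with 0 UMIs at the level that 3 UMIs would give. Gpihbp1, Fabp4 and Mgll stand in the endothelial-like class, Lpl in fibroblast-like, α-like and β-like cells, and Cd36 in macrophage-like cells, while Pnpla2 and Cpt1a are spread over most classes.

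Of the 3 genes of lipoprotein lipolysis, Lpl was the only one with a sizeable level in endocrine cells. Lpl (ENSMUSG00000015568, mm10 chromosome 8, 68880491 to 68907448, plus strand) was highest in fibroblast-like cells, at 704 CPM (618 to 799) in WT and 612 CPM (421 to 860) in HFD. The α-like class came next, at 277 CPM (245 to 312) in WT and 184 CPM (160 to 210) in HFD. In β-like cells Lpl stood at 42.3 CPM (40.6 to 44.0) in WT and 16.1 CPM (15.2 to 17.1) in HFD. The first 2 classes of this order were separated beyond counting error in both libraries. β-like and macrophage-like cells of WT were not, nor were endothelial-like and β-like cells of HFD. Ductal-like cells held 0 Lpl UMIs in both libraries, which allows up to 3.03 CPM in WT and up to 14.9 CPM in HFD, and HFD T-like cells also held 0, which allows up to 9.26 CPM. The β-like level of each library was above the limit of its ductal-like cells. The ductal-like interval for counting error reached 3.72 CPM in WT, below the β-like interval. In HFD it reached 18.3 CPM and covered the β-like interval. In HFD the β-like and ductal-like levels were thus not separated beyond counting error.

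The HFD to WT comparison of Lpl differed between classes in size. In β-like cells the log2 ratio was -1.39 (-1.49 to -1.29). Lpl was the only one of the 8 genes with at least 20 UMIs there that was called lower, beside 2.26% of all 13213 such genes called lower, 2.11% called higher and 4.37% called either way. In α-like cells it was -0.59 (-0.86 to -0.33), and in fibroblast-like cells -0.20 (-0.77 to 0.33), an interval that holds equal levels. The share of β-like cells with an Lpl UMI was 59.6% in WT and 16.9% in HFD, and 8.47% (7.17 to 9.92) and 3.91% (3.41 to 4.45) once each cell was thinned to 2000 UMIs, with 2 WT and 8 HFD cells too shallow to enter. Summed α markers stood in β-like cells at 1025 CPM in WT and at 1859 CPM in HFD and acinar markers at 160 and 484 CPM. Their part in the β-like ratios was not tested. The α list includes Gc, which was also a leading gene of the β-like cluster 0 described below, so the α sum is not specific to α cells. In α-like cells the thinned shares were 46.4% (34.3 to 58.8) and 31.0% (25.01 to 37.4). The γ markers of the α-like class were lower in HFD, as given above, and their part in its Lpl ratio was not tested.

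β-like cells of the libraries lay mostly in different clusters, so the Lpl ratio compares clusters as well as libraries. WT β-like cells were mostly in clusters 1 (1255 cells, led by Fos, C2cd4b and Mafa) and 7 (330 cells, led by Mt2 and Mt1), and HFD β-like cells in clusters 0, 2, 3, 4 and 5 (841 to 1409 cells each). Lpl stood at 44.9 CPM (42.9 to 46.9) in WT cells of cluster 1 and 32.2 CPM (28.7 to 36.0) in those of cluster 7. Among these HFD clusters it was lowest in cluster 0, led by Dapl1, Gc and Iapp, at 5.76 CPM (4.86 to 6.77). It was 12.8 CPM (10.8 to 14.97) in cluster 3 and 17.3 CPM (15.1 to 19.7) in cluster 5. Cluster 2 held 26.4 CPM (23.8 to 29.3) and cluster 4 held 32.2 CPM (28.5 to 36.3). The highest of these HFD clusters was thus level with WT cluster 7 and below WT cluster 1. Few cells lay in a main cluster of the other library. WT cells held 25.3 CPM in cluster 2 (25 cells), 38.5 CPM in cluster 4 (15 cells) and 19.3 CPM in cluster 5 (9 cells). HFD cells held 46.2 CPM in cluster 7 (20 cells). In each of these the intervals of the libraries overlapped. In cluster 0 WT cells held 23.4 CPM (17 cells) and in cluster 1 HFD cells held 19.7 CPM (59 cells). In both, HFD was lower beyond counting error. The 4 WT cells of cluster 3 held 0 Lpl UMIs. Without cluster 0 the log2 ratio was -0.98, without cluster 1 it was -0.97, and with the other β-like clusters left out in turn it stayed below -1, but these exclusions were chosen after the values had been seen. Leaving out cluster 0 or cluster 1 ended the 2-fold call, as did a maximum of 15000 UMIs per barcode (-0.95).

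Lpl also moved with depth in HFD β-like cells and less so in WT β-like cells. In WT, Lpl was 45.2 CPM (33.7 to 59.2) in cells of 5000 to 15000 UMIs, 45.4 CPM (42.1 to 48.8) from 15000 to 30000 UMIs, 42.6 CPM (40.2 to 45.1) from 30000 to 60000 UMIs and 36.6 CPM (33.1 to 40.5) above that, where HFD had no cells. In HFD the first 3 of these bins held 21.1 CPM (19.6 to 22.6), 11.9 CPM (10.8 to 13.2) and 4.65 CPM (2.80 to 7.27). The log2 ratio was therefore -1.10 (-1.51 to -0.67) in the shallowest of these bins and -3.19 (-3.93 to -2.54) in the deepest that both libraries share, where HFD contributed 121 cells and 19 Lpl UMIs. Lpl was lower in HFD in each of the 3 bins. Below 5000 UMIs WT had 23 cells and 3 Lpl UMIs, and the log2 ratio of -0.28 (-2.02 to 2.11) could not be told from equal levels at this depth.

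**Figure D2:**
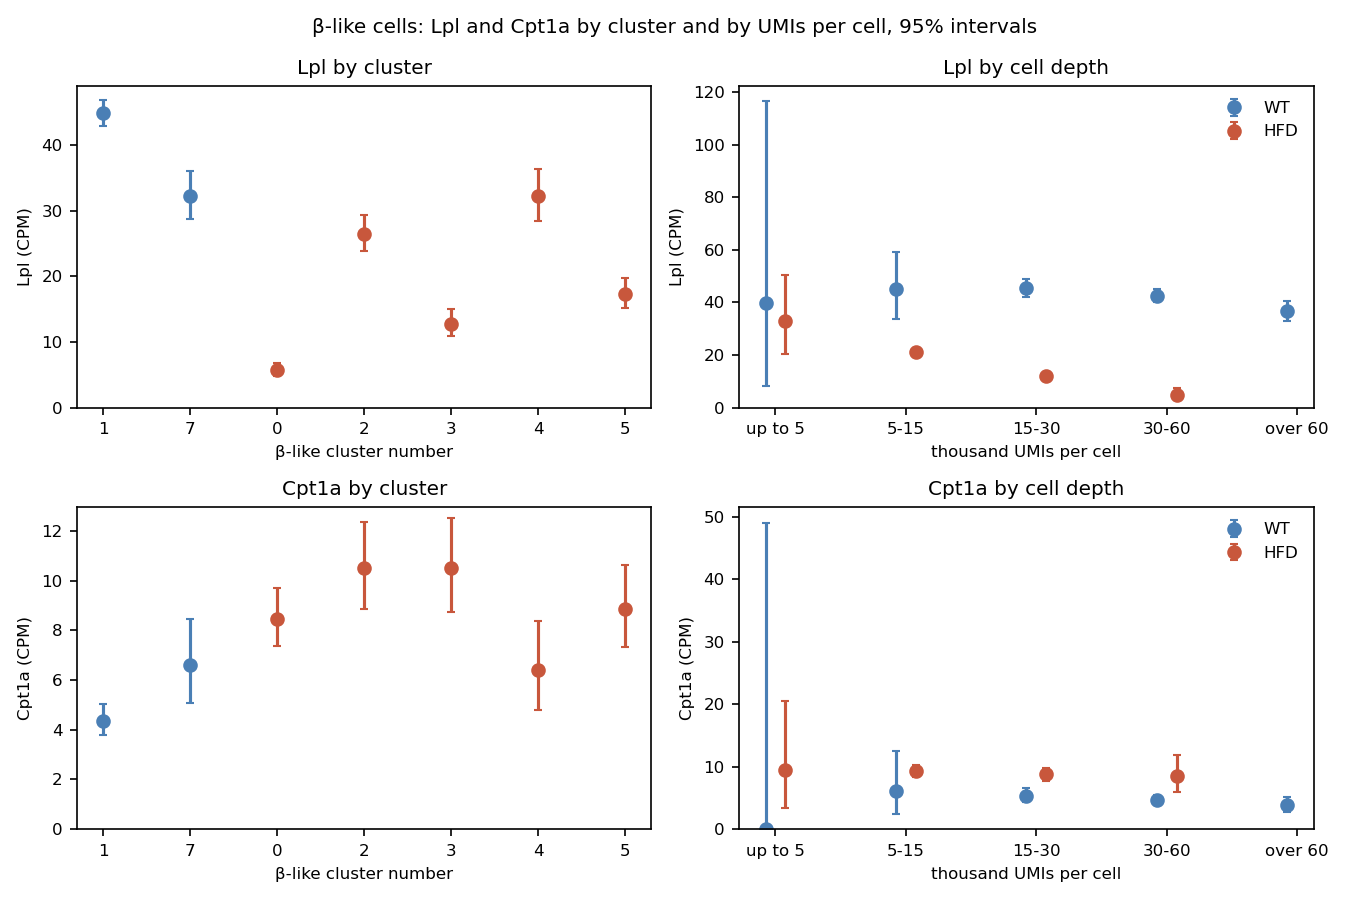
Lpl and Cpt1a in β-like cells (CPM with 95% intervals for counting error), by cluster on the left for the main clusters of each library and by UMIs per cell on the right, WT in blue and HFD in red. No HFD cluster lies above the WT clusters in Lpl beyond its interval, and HFD Lpl goes down with depth from 21.1 to 4.65 CPM between 5000 and 60000 UMIs per cell, whereas HFD Cpt1a stays between 8.57 and 9.41 CPM at all depths.

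Gpihbp1 (ENSMUSG00000022579, chromosome 15, 75596628 to 75599481, plus strand), which shuttles lipoprotein lipase across capillary endothelium and anchors it there, was almost wholly an endothelial transcript. It stood at 823 CPM (777 to 871) in WT and 985 CPM (906 to 1069) in HFD endothelial-like cells, a log2 ratio of 0.26 (0.11 to 0.40). The next class in WT was ductal-like, at 9.08 CPM (4.15 to 17.2), and δ-like, fibroblast-like and macrophage-like cells held 0 UMIs in both libraries. In β-like cells 5 UMIs were counted in each library, a level of 0.0896 CPM in WT and of 0.0681 CPM in HFD. After thinning, 67.1% (59.2 to 74.3) of WT and 68.5% (59.0 to 77.0) of HFD endothelial-like cells had a Gpihbp1 UMI, with 12 WT and 41 HFD cells too shallow to enter, and the unthinned shares were 79.4% and 77.6%. Lpl itself was low in the same class, at 28.6 CPM (20.6 to 38.9) in WT and 17.2 CPM (8.23 to 31.6) in HFD, a log2 ratio of -0.74 (-1.90 to 0.28).

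Angptl4 (ENSMUSG00000002289, chromosome 17, 33773750 to 33781830, minus strand), a secreted inhibitor of lipoprotein lipase, was barely detected, with 26 UMIs over all cells. Fibroblast-like cells gave 5 UMIs in each library, 14.7 CPM (4.78 to 34.4) in WT and 92.8 CPM (30.1 to 216) in HFD, and endothelial-like cells gave 3 and 4 UMIs. No class reached 20 UMIs, so no ratio was called.

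Of the uptake genes, Cd36 (ENSMUSG00000002944, chromosome 5, 17781690 to 17888801, minus strand), the scavenger receptor that takes up long-chain fatty acids and oxidised lipoproteins, was highest in macrophage-like cells. It stood there at 166 CPM (115 to 232) in WT and 163 CPM (91.4 to 269) in HFD, a log2 ratio of -0.02 (-1.01 to 0.89), an interval that reaches from 2-fold lower to 1.86-fold higher. As sequenced, 14 of 40 WT and 9 of 45 HFD macrophage-like cells had a UMI. The 5 cells with most held 67.6% and 73.3% of the UMIs. These values rest on 34 WT and 15 HFD UMIs. Median depth was 5016.5 UMIs per cell in WT and 2050 in HFD, so a cell without a UMI need not lack the transcript. Endothelial-like cells were next, at 24.4 CPM (17.0 to 34.0) in WT and 36.0 CPM (22.3 to 55.1) in HFD, a log2 ratio of 0.56 (-0.29 to 1.38). The macrophage-like level was 6.79 times (4.11 to 11.2) the endothelial-like level in WT and 4.53 times (2.17 to 9.22) in HFD.

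In β-like cells Cd36 had 0 UMIs in WT, which allows up to 0.0538 CPM, and 27 UMIs in 26 HFD cells, 0.367 CPM (0.242 to 0.535). The HFD level was 6.83 times that limit, the exact interval of the ratio began at 5.19-fold higher, and Cd36 was 1 of 2 genes of the 8 called higher, beside 2.11% of all genes called higher. After thinning only 2 of 5480 HFD cells (0.0365%) had a UMI, a level close to single UMIs. Summed macrophage markers stood at 43.9 CPM in WT and at 52.8 CPM in HFD β-like cells, with 7 and 8 of the 8 markers detected. This sum is not specific to macrophages, since C1qa alone gave 135 CPM in HFD δ-like cells with the other markers at 0. The part of these markers in the Cd36 UMIs of β-like cells was not tested. The other gene called higher there was Fabp4, on 5 WT and 20 HFD UMIs, 0.0896 CPM (0.0291 to 0.209) and 0.272 CPM (0.166 to 0.420), beside summed endothelial markers at 3.17 and 4.07 CPM with 10 of 10 detected in both. A Fabp4 UMI was in 0.302% of WT and 0.346% of HFD β-like cells as sequenced, and after thinning in 0 of 1653 WT and 4 of 5480 HFD cells (0.0730%).

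Fabp4 (ENSMUSG00000062515, chromosome 3, 10204088 to 10208576, minus strand), the fatty acid binding protein of adipocytes and capillary endothelium, had the largest HFD to WT ratio of the 9 genes with at least 20 UMIs in endothelial-like cells. It stood at 951 CPM (901 to 1003) in WT and 2102 CPM (1986 to 2223) in HFD, a log2 ratio of 1.14 (1.03 to 1.26). Fabp4 was the only one of the 9 genes compared in this class that was called, against 2.1% of all 8017 genes called higher, 7.86% called lower and 9.95% called in either direction. No adipocyte marker had a UMI in these cells in either library. Summed acinar markers stood there at 731 CPM in WT and at 1574 CPM in HFD and erythroid markers at 1404 and 688 CPM. Their part in the Fabp4 ratio was not tested. The next class in the WT order was ductal-like at 8.07 CPM (3.48 to 15.9), with 7 of its 8 UMIs in 1 cell.

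Fabp4 was spread over the endothelial-like cells less evenly in WT than in HFD. Among cells with at least 2000 UMIs, the WT median was 458 CPM, with quartiles of 81.3 and 1290 CPM and a highest cell at 12289 CPM, and the HFD median was 1702 CPM, with quartiles of 895 and 2922 CPM and a highest cell at 9241 CPM. The ranges of the libraries overlapped throughout, but the lower HFD quartile lay above the WT median. In WT the 5 cells with most Fabp4 held 31.2% of its UMIs, 1 of them with 150 UMIs, against 14.4% in HFD. After thinning, 61.4% (53.3 to 69.0) of WT and 88.3% (80.8 to 93.6) of HFD cells had a Fabp4 UMI, and the unthinned shares were 75.3% and 87.5%. Without the 5 top cells of each library the log2 ratio was 1.51, without the 8 WT and 2 HFD cells that held more mural than endothelial marker UMIs it was 1.14, with a maximum of 15000 UMIs per barcode 0.85, and as the mean of each cell's CPM 0.73. The last 2 ended the call, and the direction held in all 4.

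**Figure D3:**
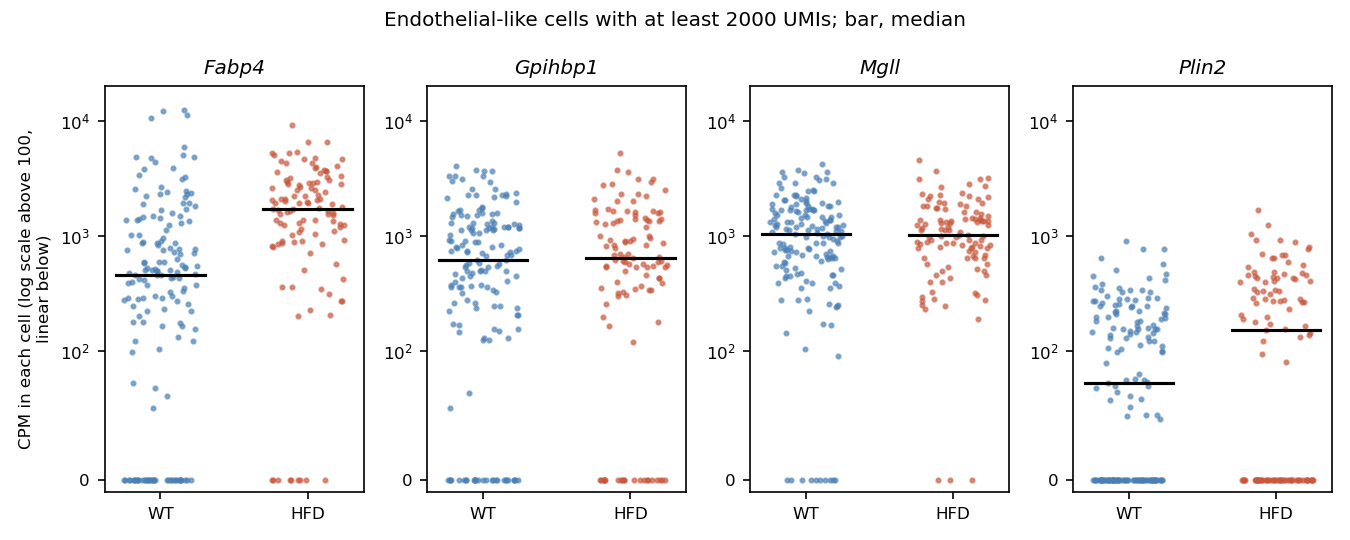
Each point is 1 endothelial-like cell with at least 2000 UMIs (158 WT and 111 HFD cells), placed by its CPM of Fabp4, Gpihbp1, Mgll or Plin2 on an axis that is logarithmic above 100 CPM and linear below, with a bar at the median. The Fabp4 median lies at 458 CPM in WT and at 1702 CPM in HFD, while the medians of Gpihbp1 (619 and 650 CPM) and Mgll (1036 and 1032 CPM) lie side by side.

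Fabp5 (ENSMUSG00000027533, chromosome 3, 10012548 to 10016607, plus strand), the epidermal fatty acid binding protein, was spread over many classes. An annotated processed pseudogene, Fabp5l2, is not a row of the count tables, and reads shared with it make the Fabp5 count uncertain. In WT the level was highest in δ-like cells at 133 CPM (100.4 to 173), 1.94 times (1.37 to 2.72) that of endothelial-like cells at 68.5 CPM (55.6 to 83.4), which did not differ beyond counting error from ductal-like cells at 65.6 CPM (50.6 to 83.6). Of the 65 WT ductal-like UMIs, 50 were in 1 cell. In HFD, δ-like cells stood at 103 CPM (73.2 to 141) and endothelial-like cells at 97.8 CPM (74.1 to 127), log2 ratios of -0.37 (-0.997 to 0.25) and 0.51 (0.02 to 1.0005). HFD B-like cells also carried it, at 169 CPM (94.4 to 278) on 15 UMIs. That class also held 7 of the 8 macrophage markers at 2249 CPM and all 6 dendritic markers at 1383 CPM. Its own B markers stood at 17666 CPM. The part of the other markers in this Fabp5 level was not tested. β-like cells were the lowest of the 7 classes, at 2.24 CPM (1.87 to 2.67) in WT and 3.04 CPM (2.65 to 3.46) in HFD, a log2 ratio of 0.44 (0.12 to 0.77), and the thinned shares were 0.665% and 0.675%.

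The fibroblast-like class gave Fabp5 at 53.0 CPM (31.4 to 83.8) in WT and 260 CPM (142 to 436) in HFD, a log2 ratio of 2.29 (1.17 to 3.38). Fabp5 was 1 of 2 genes compared there and the only one called, beside 6.99% of all genes called higher, 14.9% called lower and 21.9% called either way. This value belonged to few cells. Of the 14 HFD UMIs, 13 were in 4 cells, and of the 18 WT UMIs, 11 were in 7 cells, that carried 17 and 75 UMIs of Schwann cell markers against 6 and 27 of fibroblast markers. With those cells placed elsewhere, as happened when no doublet was left out, 7 WT and 1 HFD UMIs remained and the log2 ratio was -0.088.

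**Figure D4:**
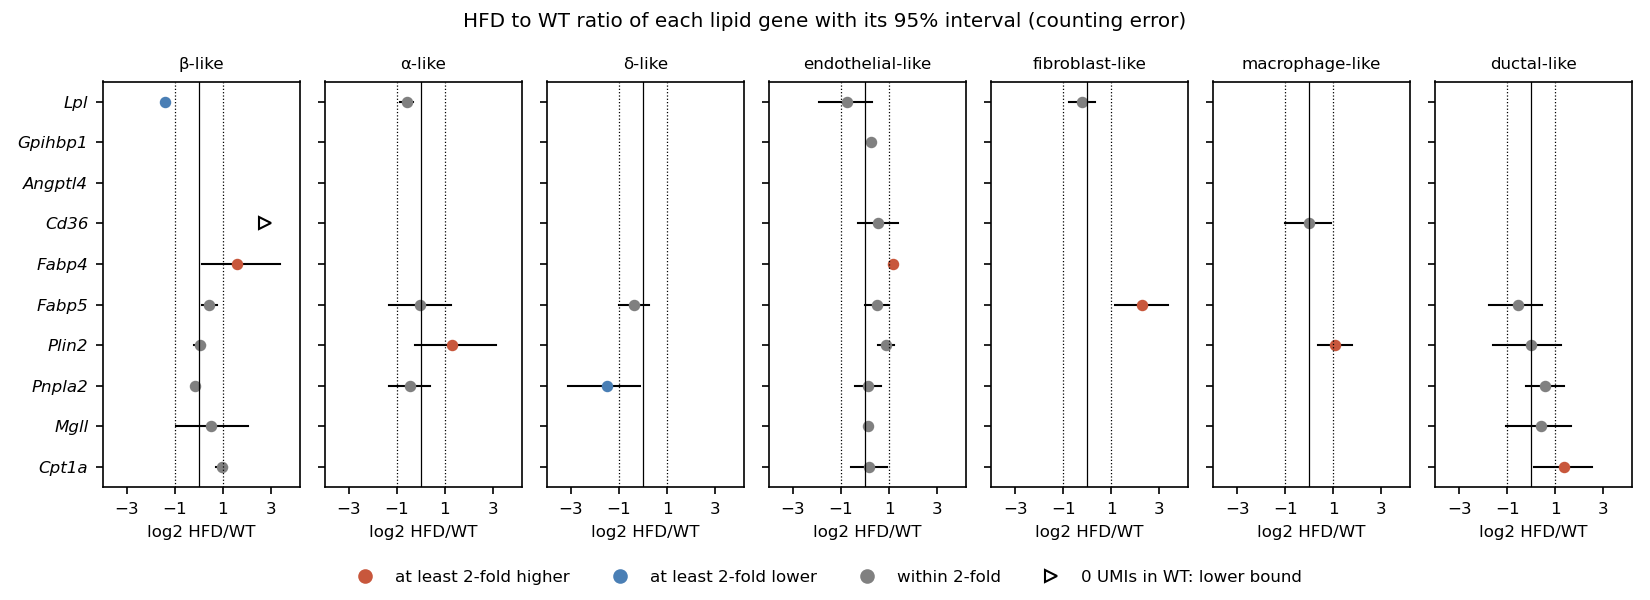
Log2 HFD to WT ratio of CPM for each gene in 7 cell classes, with 95% intervals for counting error, for genes whose 2 libraries together gave 20 or more UMIs in the class. Dotted lines mark 2-fold, red points are at least 2-fold higher in HFD, blue points at least 2-fold lower and grey points within 2-fold, and the open triangle is Cd36 in β-like cells against the level that 3 UMIs would give in WT, which had 0. Lpl in β-like cells (-1.39), Fabp4 in endothelial-like cells (1.14) and Plin2 in macrophage-like cells (1.08) are among the points past 2-fold with intervals that leave out 0.

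Plin2 (ENSMUSG00000028494, chromosome 4, 86648386 to 86670060, minus strand), the perilipin that coats lipid droplets outside adipose tissue, was highest in macrophage-like cells and next in endothelial-like cells in both libraries, by 1.48 times (1.01 to 2.10) in WT and 1.72 times (1.15 to 2.50) in HFD. In macrophage-like cells it stood at 186 CPM (131 to 255) in WT and 392 CPM (275 to 543) in HFD, a log2 ratio of 1.08 (0.38 to 1.78). Plin2 was 1 of 2 genes compared there and the one called, beside 5.35% of all genes called higher, 7.13% called lower and 12.5% called either way. These values rest on 38 WT and 36 HFD UMIs, and without the 5 top cells of each library the log2 ratio was 0.84. Markers of other cells were also higher in the HFD class, with β markers at 7165 CPM in WT and at 18296 CPM in HFD and acinar markers at 1084 and 3420 CPM. Their part in the Plin2 ratio was not tested. The thinned shares were 34.2% (19.6 to 51.4) of 38 WT cells and 44.0% (24.4 to 65.1) of 25 HFD cells, intervals that overlap, with 2 WT and 20 HFD cells too shallow to enter. In endothelial-like cells Plin2 stood at 126 CPM (108 to 145) in WT and 228 CPM (191 to 270) in HFD, a log2 ratio of 0.86 (0.53 to 1.19) that was within 2-fold, and the thinned shares were 26.6% and 27.9%. In β-like cells the levels were 4.72 CPM (4.16 to 5.32) and 4.83 CPM (4.34 to 5.36), a log2 ratio of 0.04 (-0.20 to 0.27). In α-like cells Plin2 was the 1 gene of 4 compared that was called, on 5 WT and 15 HFD UMIs with an interval of -0.24 to 3.11 around 1.30, beside 2.02% of all genes called higher, 3.84% called lower and 5.86% called either way, so it did not differ beyond counting error.

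Peroxisome proliferator-activated receptors, the nuclear receptors that sense fatty acids, bind paired copies of the hexamer AGGTCA, and Plin2 and Cpt1a are known targets of theirs. The stretches before the RefSeq starts of these 2 genes are shown because Plin2 and Cpt1a are storage and oxidation genes with HFD to WT ratios near or past 2-fold in some classes. Each runs from 250 to 21 bases before the start, in the GRCm38.p6 build and 5′ to 3′ on the strand of the gene, and capitals mark AGGTCA or its complement TGACCT. The Plin2 stretch (chr4:86670080-86670309, minus strand) overlaps no annotated gene, and the Cpt1a stretch (chr19:3323051-3323280, plus strand) lies within Cpt1a and overlaps no annotated exon.
Plin2: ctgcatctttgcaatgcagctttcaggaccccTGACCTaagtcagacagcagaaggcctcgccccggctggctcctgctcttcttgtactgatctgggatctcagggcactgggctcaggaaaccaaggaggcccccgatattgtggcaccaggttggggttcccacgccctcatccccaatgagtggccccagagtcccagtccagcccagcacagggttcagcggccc
Cpt1a: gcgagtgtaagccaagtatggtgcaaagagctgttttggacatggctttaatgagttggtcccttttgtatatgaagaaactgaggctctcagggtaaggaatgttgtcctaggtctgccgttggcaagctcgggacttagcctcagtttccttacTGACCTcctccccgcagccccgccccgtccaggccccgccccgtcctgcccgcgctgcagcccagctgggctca
The hexamer began 218 bases before the start of Plin2 and 94 bases before that of Cpt1a, and 228 bases before that of Cd36, and was on neither strand of the Pnpla2 and Mgll stretches. Of all 32851 RefSeq stretches of the same length and position, 4285 (13.0%) held it. The pair of 2 hexamers in the same direction with any 1 base between them, searched on both strands and itself holding the hexamer, was in 10 of them (0.0304%) and in none of the 6 stretches of these 5 genes. Only these exact letters within the stretches were searched. With so rare a pair, its absence from 6 stretches is uninformative.

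Pnpla2 (ENSMUSG00000025509, chromosome 7, 141455198 to 141460743, plus strand), which starts the breakdown of stored triglyceride, was detected in all 7 classes of WT and in 6 of HFD. Endothelial-like and ductal-like cells led, at 65.7 CPM (53.1 to 80.3) and 62.5 CPM (48.0 to 80.2) in WT and 72.1 CPM (51.9 to 97.4) and 94.1 CPM (56.7 to 147) in HFD, and they did not differ from each other beyond counting error in either library. The log2 ratio was 0.13 (-0.43 to 0.67) in endothelial-like and 0.59 (-0.24 to 1.35) in ductal-like cells, so a change within these bounds could not be seen at this depth. In β-like cells Pnpla2 was 13.5 CPM (12.6 to 14.5) in WT and 12.1 CPM (11.3 to 12.9) in HFD, a log2 ratio of -0.16 (-0.31 to -0.02), with thinned shares of 3.09% and 2.14%. In δ-like cells it was 45.1 CPM (27.1 to 70.4) in WT and 15.8 CPM (5.81 to 34.5) in HFD, a log2 ratio of -1.51 (-3.12 to -0.13). Pnpla2 was 1 of 2 genes compared there and the one called, beside 4.44% of all genes called lower, 2.55% called higher and 6.99% called either way. That value rests on 19 WT and 6 HFD UMIs, and with at most 10% mitochondrial UMIs it was -1.32 but no longer reached the minimum of 20 UMIs for a call. In the δ-like class summed β markers stood at 35406 CPM in WT and at 54769 CPM in HFD. Summed γ markers stood there at 88750 and 103110 CPM, α markers at 9480 and 4606 CPM and acinar markers at 717 and 1884 CPM. The part of these markers in the Pnpla2 ratio was not tested. For Pnpla2 in these cells the thinned shares were 11.3% (4.27 to 23.0) and 4.67% (1.53 to 10.6).

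Mgll (ENSMUSG00000033174, chromosome 6, 88724412 to 88828360, plus strand), which releases the last fatty acid from monoacylglycerol and also degrades an endocannabinoid, was an endothelial transcript like Gpihbp1. It stood at 1104 CPM (1050 to 1159) in WT and 1194 CPM (1107 to 1286) in HFD endothelial-like cells, a log2 ratio of 0.11 (-0.02 to 0.24). The endothelial-like level was 42.1 times (28.6 to 64.6) that of ductal-like cells in WT, and in β-like cells Mgll stood at 0.126 CPM in WT and at 0.177 CPM in HFD. The gene Gm26588 overlaps Mgll on the opposite strand, and whether strand was used in counting is not given in the sources used here. After thinning, 94 of 106 WT cells with a Gpihbp1 UMI had an Mgll UMI (88.7%, 81.1 to 94.0), against 35 of 52 without (67.3%, 52.9 to 79.7). In HFD these shares were 70 of 76 (92.1%, 83.6 to 97.0) and 32 of 35 (91.4%, 76.9 to 98.2), so only in WT were the intervals apart. The 8 WT and 2 HFD cells with more mural than endothelial marker UMIs held 0 Gpihbp1 UMIs, with Mgll at 231 and 1059 CPM against 1114 and 1197 CPM in the other cells. Their part in these shares was not tested. For Fabp4, 66 of 106 WT cells with Gpihbp1 (62.3%, 52.3 to 71.5) and 31 of 52 without it (59.6%, 45.1 to 73.0) had a UMI, against 65 of 76 (85.5%, 75.6 to 92.5) and 33 of 35 (94.3%, 80.8 to 99.3) in HFD. Plin2 was in 27 of 76 HFD cells with Gpihbp1 (35.5%, 24.9 to 47.3) and in 4 of 35 without it (11.4%, 3.20 to 26.7), against 29 of 106 and 13 of 52 WT cells.

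Cpt1a (ENSMUSG00000024900, chromosome 19, 3322334 to 3385733, plus strand), the outer-membrane carnitine palmitoyltransferase that controls the entry of fatty acids into mitochondrial oxidation, was low and broad. In WT it was highest in endothelial-like cells at 36.3 CPM (27.1 to 47.6), and the next classes, fibroblast-like and ductal-like, did not differ from it beyond counting error. In β-like cells Cpt1a stood at 4.68 CPM (4.13 to 5.28) in WT and 8.996 CPM (8.32 to 9.71) in HFD, a log2 ratio of 0.94 (0.73 to 1.16), just within 2-fold. The thinned shares were 0.968% (0.554 to 1.57) and 1.62% (1.31 to 1.99), and the unthinned ones were 14.6% and 11.2%, with WT cells the deeper. By cluster, WT cells held 4.37 CPM (3.78 to 5.03) in cluster 1 and 6.61 CPM (5.08 to 8.46) in cluster 7, and HFD cells held 6.40 CPM (4.79 to 8.37) in cluster 4 and from 8.48 to 10.5 CPM in clusters 0, 2, 3 and 5. HFD cluster 4, the main HFD cluster highest in Lpl, thus was not separated from WT cluster 7 in Cpt1a beyond counting error. By depth the log2 ratio was 0.61 (-0.45 to 1.93) in cells of 5000 to 15000 UMIs, where WT had 102 cells and 7 Cpt1a UMIs and equal levels lie within the interval, 0.71 (0.36 to 1.08) from 15000 to 30000 UMIs and 0.90 (0.32 to 1.45) from 30000 to 60000 UMIs. In ductal-like cells Cpt1a was 19.2 CPM (11.5 to 29.9) in WT and 49.5 CPM (23.8 to 91.1) in HFD on 19 and 10 UMIs, a log2 ratio of 1.37 (0.10 to 2.55). Cpt1a was the 1 gene of 5 compared there that was called, beside 3.83% of all genes called higher, 15.3% called lower and 19.1% called either way. Summed acinar markers stood in ductal-like cells at 729 CPM in WT and at 2100.2 CPM in HFD, β markers at 18774 and 9773 CPM, δ markers at 692 and 208 CPM and endothelial markers at 291 and 44.6 CPM. Their part in the Cpt1a ratio was not tested.

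The genes whose levels were most alike across 16 class-by-library sums, by Pearson's r of log2(CPM + 1) among 11230 genes, are given as a description, and the sums share libraries and depth. Gpihbp1 was closest to the endothelial genes Adgrl4 (r = 0.999), Robo4 (0.998) and Ptprb (0.998), and Mgll to Adamts9 (0.973), Itga1 (0.969) and Plscr2 (0.963). Fabp4 was closest to Arap3 (0.960), Rai14 (0.947) and Ces2e (0.939). Plin2 was closest to Rap1b (0.913), to Hilpda (0.907), which encodes a droplet protein, and to Trafd1 (0.907). Lpl was closest to Gadd45g (0.857), Rnase4 (0.845) and Tpst1 (0.827), Cd36 to Prdm1 (0.836), Tnfrsf11a (0.824) and Sema6b (0.815), and Fabp5 to Sumo2 (0.883), Sri (0.870) and Rbx1 (0.864). The broad genes matched other broad genes, Pnpla2 with Kansl3 (0.959), Fbrs (0.943) and Zpr1 (0.936) and Cpt1a with Bloc1s4 (0.970), Arl5b (0.968) and Bclaf3 (0.962), and Angptl4, on 26 UMIs, with Aebp1 (0.871), Tmed9 (0.862) and Prelp (0.855).

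Around these 10 genes, 69 other genes of lipid uptake, acyl-CoA activation, droplet formation, lipolysis, oxidation and their regulation were read in β-like and endothelial-like cells. In β-like cells 53 had at least 20 UMIs, 2 were called higher and 1 lower, beside 2.11% and 2.26% of all genes, and the median log2 ratio was 0.07 beside -0.005 over all 13213 genes. Of the 21 oxidation genes among them, 12 had a ratio above 1 and none was past 2-fold, with a median of 0.02. Group medians ran from -0.18 in the 5 regulators to 0.37 in the 7 uptake and binding genes. Over the 53 genes, 19 intervals for counting error lay above equal levels and 8 below. Over all 13213 genes these counts were 2979 and 2811. The 5 genes of the regulator group included both Ppargc1a, a coactivator of these receptors and of mitochondrial genes, at 7.62 CPM in WT and at 18.3 CPM in HFD with a log2 ratio of 1.27 (1.11 to 1.43), and its relative Ppargc1b, at 1.74 CPM and 0.857 CPM with a log2 ratio of -1.02 (-1.50 to -0.55). The third gene called was Pnpla3, a droplet protein of the Pnpla2 family, on 6 WT and 22 HFD UMIs with a log2 ratio of 1.48 (0.13 to 3.07). These levels carry the cluster and depth differences described for Lpl.

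In endothelial-like cells 40 of the 69 genes had at least 20 UMIs, 1 was called higher and 2 lower, beside 2.1% and 7.86% of all genes, and the median log2 ratio was -0.02 beside -0.07 over all 8017 genes. Hilpda, a hypoxia-inducible droplet protein that inhibits Pnpla2, stood at 315 CPM in WT and at 849 CPM in HFD, a log2 ratio of 1.43 (1.24 to 1.62). G0s2, another inhibitor of Pnpla2, stood at 28.6 CPM in WT and at 8.58 CPM in HFD on 41 and 5 UMIs, a log2 ratio of -1.74 (-3.44 to -0.40), while Pnpla2 itself was at 65.7 and 72.1 CPM. Eci1, an isomerase for the oxidation of unsaturated fatty acids, stood at 49.6 CPM in WT and at 20.6 CPM in HFD, a log2 ratio of -1.27 (-2.29 to -0.37).

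**Figure D5:**
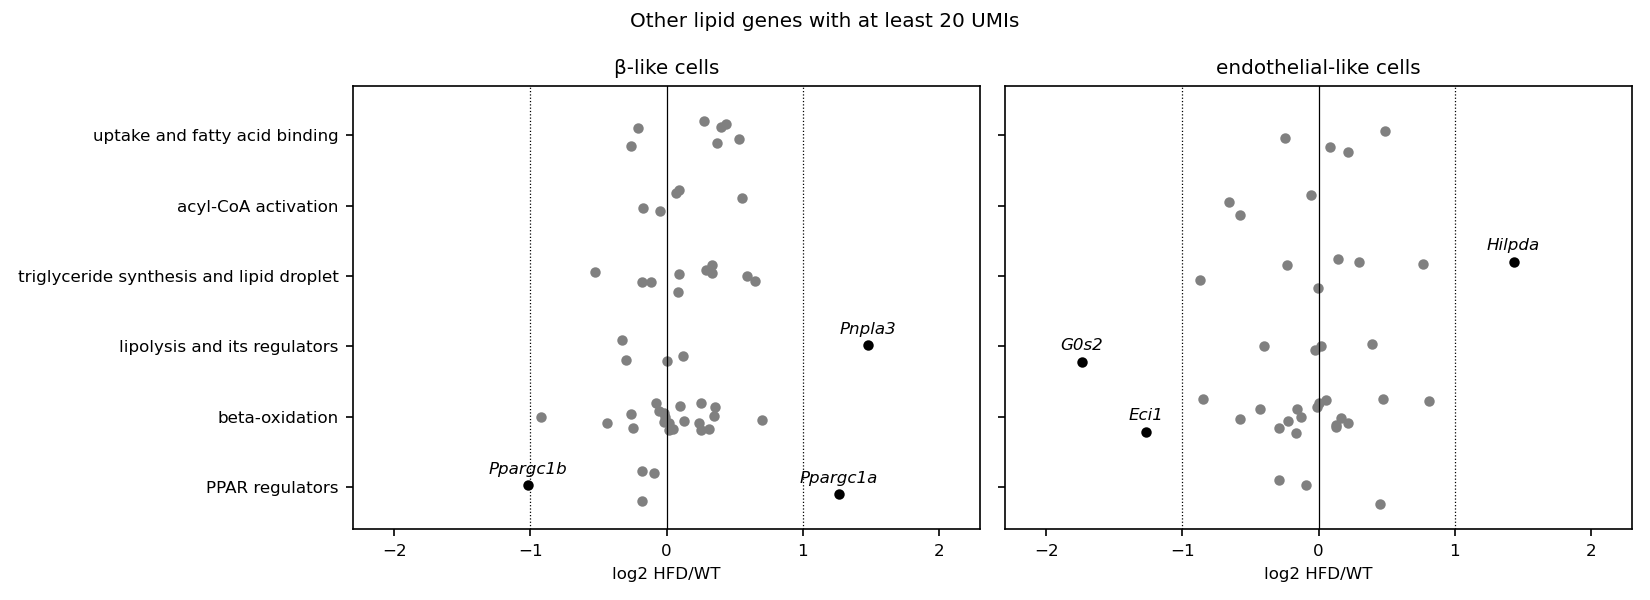
Log2 HFD to WT ratio of CPM of the other lipid genes with at least 20 UMIs, by group, in β-like cells (53 genes) and endothelial-like cells (40 genes), 1 point per gene, with dotted lines at 2-fold. Named black points are past 2-fold with an interval that leaves out equal levels, among them Ppargc1a (1.27) and Ppargc1b (-1.02) in β-like cells and Hilpda (1.43) in endothelial-like cells, and most other genes lie near 0.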

How the data were processed

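Single-cell RNA libraries of islets from male mice, 1 WT and 1 HFD, were made with the 3′ v3 chemistry of 10x Genomics after removal of dead cells. The deposited values were UMI counts per gene and barcode, and the submitters' processing notes name the mm10 build and Cell Ranger, version 3.0.2, as what the authors used. The authors' later filters had not been applied, since 47.5% of WT and 25.9% of HFD barcodes held over 15000 UMIs.

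From 3895 WT and 8951 HFD barcodes (73843674 and 94375138 UMIs), those with at least 500 genes and at most 20% mitochondrial UMIs were kept, with no UMI maximum. Scrublet, run in scanpy v1.11.5, set a threshold by itself that marked 12 WT and 0 HFD barcodes and had not worked, so the top scores were left out, 0.8% of barcodes for each 1000 in the library (121 WT and 641 HFD barcodes). Both libraries were clustered together (square root of counts scaled to 10000 UMIs, 2000 variable genes without hormone, mitochondrial and lipid genes, 50 components, 15 neighbours, Leiden resolution 1 in igraph v0.11.9). Clusters were named from 19 marker lists where at least 3 markers were detected and no other class had more markers among the top 10 genes, except clusters with no marker of their own there and a median UMI count more than 3-fold below that of the library, which stayed unnamed. This scoring was chosen after the leading genes of clusters had been seen.

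UMIs were summed per library and class. Levels have exact Poisson intervals, ratios exact conditional binomial intervals and shares Clopper-Pearson intervals (scipy v1.17.1), all at 95% and for counting error only, and a count of 0 is given the limit of 3 UMIs. Ratios need at least 20 cells per library. The ratio code was tested on simulated counts. The genes, lists and rules were chosen with earlier results of these data known. All 10 genes were named, other lipid genes where at least 2-fold with at least 20 UMIs and an interval without 1, up to 6 in each direction, and the 3 genes most alike to each among those with at least 200 UMIs. Loci are from GENCODE vM21 and stretches before starts from RefSeq (GRCm38.p6), which matched 5 of the 10 genes.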

Additional observations from a re-analysis of the deposited data

Results flagged for a closer look

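In the 1397 WT and 2279 HFD barcodes left out by the filters, which entered no comparison, Fabp5 and Cpt1a had HFD to WT ratios whose intervals lay above equal levels. Fabp5 stood at 3.28 CPM in WT on 19 UMIs and 12.1 CPM in HFD on 151 UMIs, a log2 ratio of 1.88 (1.18 to 2.65). Cpt1a stood at 4.32 CPM on 25 UMIs and 9.43 CPM on 118 UMIs, a log2 ratio of 1.13 (0.49 to 1.81). The cell types behind these barcodes were not analysed here. Of them, 102 WT and 625 HFD barcodes passed the gene and mitochondrial filters and were left out only for their doublet scores. These ratios thus compare pools of unlike make-up.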

How the results depend on the processing

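Each group was 1 library, so no value has a replicate check, no library could be left out, and the depth of the WT library and the diet cannot be told apart. No paired analysis was possible because each group was 1 library and the labels give no replicate numbers. Of 302 alternative log2 ratios, 278 stayed within the interval of the reported value. Of the 302, 23 had the other sign, over 11 ratios. For a ratio past 2-fold this happened in 2, both Fabp5 in fibroblast-like cells (-0.088 with a maximum of 15000 UMIs and with no doublet left out), and the other 21 were ratios within 2-fold, among them Fabp5 in ductal-like cells (2.49 with the 15000 maximum). The number of the 10 genes past 2-fold in β-like cells, 3 as reported, was 1 with a maximum of 15000 UMIs and 1 with at least 50 UMIs per gene. In α-like cells, 1 as reported, it was 0 at Leiden resolution 2, 0 with at least 50 UMIs and 5 with at least 1 UMI. In δ-like cells, 1 as reported, it was 0 with at most 10% mitochondrial UMIs, 0 with at least 50 UMIs and 3 with at least 1 UMI. In endothelial-like cells, 1 as reported, it was 0 with the 15000 maximum, 0 as the mean of each cell's CPM and 2 with at least 1 UMI. In macrophage-like cells, 1 as reported, it was 6 with at least 1 UMI. The cause was not tested, beyond the fewer or more genes that a UMI minimum admits. In β-like cells the log2 ratio of Lpl ran from -1.97 to -0.95 over its alternatives and that of Cpt1a from 0.60 to 1.07, and leaving out hormone and mitochondrial genes moved the median of all genes by -0.18, the 15000 maximum by -0.11. The class with the highest level was the same in 36 of 40 alternatives, and 95 of 140 shares stayed within their interval when cells were thinned to 1000 UMIs. Fewer UMIs by themselves lower a share, and wide intervals hold more shares, so this count of shares is no check on the reported values. Fibroblast-like and macrophage-like cells could not be compared with at least 1000 genes per cell, which left fewer than 20 HFD cells. Leaving out single β-like clusters, the 5 top cells of a gene or the cells with more mural than endothelial marker UMIs was chosen after seeing the data.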

Other observations

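The 349 WT and 373 HFD cells of unnamed clusters belong to no comparison of cell classes. Lpl stood there at 46.4 CPM (41.8 to 51.5) in WT and 22.7 CPM (18.8 to 27.0) in HFD, and in the largest of these clusters, led by Sst, Rbp4, Pyy, Ppy and Gcg, at 48.2 CPM (43.3 to 53.6) in 179 WT cells and 23.2 CPM (19.3 to 27.8) in 322 HFD cells. Pnpla2 stood at 20.5 and 13.1 CPM, Fabp5 at 17.3 and 16.2 CPM and Cpt1a at 5.32 and 8.29 CPM, while Fabp4 and Angptl4 had 0 UMIs, which allows up to 0.389 CPM in WT and 0.552 CPM in HFD.

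In the barcodes left out by the filters, whose make-up differed between the libraries as given above, the endothelial transcripts Gpihbp1 and Mgll ran lower in HFD. Gpihbp1 stood at 15.2 CPM in WT and at 3.597 CPM in HFD on 88 and 45 UMIs, and Mgll at 18.7 and 4.80 CPM on 108 and 60 UMIs, whereas Fabp4 stood at 10.4 and 9.67 CPM on 60 and 121 UMIs.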
